A study of Homo sapiens with 15 samples.

Results

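SLC45A3 and ELK4 are neighbouring genes on chromosome 1, and the chromatin contacts of their promoters were followed through 72 h of androgen treatment in LNCaP cells. A loop was counted for a gene when 1 of its 1 kb anchors overlapped the window that reaches 2.5 kb upstream and downstream from where the gene's canonical transcript begins (Gencode release 44, hg19). Of 505995 different loops, 16 touched the SLC45A3 promoter and 37 touched the ELK4 promoter. A single loop joined both promoters, so 52 loops were described in all. Loops were assigned to the genes by position alone.

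SLC45A3 encodes prostein, a multi-pass membrane protein of the solute carrier family whose expression is largely restricted to the prostate and is raised by androgen. Its regulatory region is one of those found fused to ETS factor genes in prostate tumours. ELK4, also named SAP1, encodes an ETS transcription factor of the ternary complex family, which binds DNA together with serum response factor (SRF). ELK4 lies directly downstream of SLC45A3 on the same strand, and chimeric SLC45A3-ELK4 transcripts that run from the first gene into the second are known in prostate cells. When androgen binds the androgen receptor, the receptor enters the nucleus and binds enhancers, many of which lie far from the promoters they contact.

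LNCaP is an established androgen-dependent prostate cancer cell line, derived from a lymph node metastasis, whose androgen receptor carries a mutation in the ligand-binding domain. Cells were kept for 3 days in phenol red-free medium with charcoal-stripped serum and then treated with dihydrotestosterone (DHT) at 10 nM; they were collected after 30 m and after 4, 16 and 72 h. The cells called 0 m received the vehicle EtOH. HiChIP, which ligates DNA ends that lie close together and then enriches the ligated fragments by immunoprecipitation, was done against H3K27ac (acetylated histone H3, found at active enhancers and promoters) and against H3K4me3 (trimethylated histone H3, found mainly at active promoters). A HiChIP contact can rise through more frequent contact, through more of the mark at either anchor or through more cells with the contact, and these cannot be told apart here.

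The 15 labelled libraries comprised 2 H3K27ac libraries and 1 H3K4me3 library per time point, but the deposited data held a single contact value per loop for each mark and time point. There was therefore no spread between replicates, no test between time points was possible and no p-value is given. Every interval below is a 95% interval that covers counting error of read pairs only. The loops held between 2475168 and 4308555 read pairs in the 5 H3K27ac tables and between 2153262 and 10675614 in the 5 H3K4me3 tables, the 4 h H3K4me3 table being the deepest. Contact is given on the authors' scale, on which 1 read pair was worth 0.0792 to 0.342 depending on the table. All comparisons with 0 m shared the same 0 m table. The promoters of KLK3 and TMPRSS2, which encode prostate epithelial proteins, held 13 and 56 loops. Gene expression was not analysed here.

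SLC45A3 (ENSG00000158715.6_8) spans chr1:205626979-205649637 on the minus strand of hg19, and ELK4 (ENSG00000158711.14_7) spans chr1:205566684-205601139 on the same strand. Their starts are 48498 bp apart, and 25840 bp separate the end of SLC45A3 from the start of ELK4. All SLC45A3 loops used the anchor chr1:205647001-205648000, inside the gene just downstream of the start, and all ELK4 loops used chr1:205602001-205603000, just upstream of the ELK4 start. An anchor stands for the 5 kb bin around it. A second anchor overlapped the SLC45A3 window upstream of the start and held no loop, and whether the merging of adjacent bins during loop calling removed loops there was not tested.

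The promoters differed in their sequence. The 250 bases before each start, read from the GRCh37 genome on the minus strand, are shown because the described loops end at these promoters; capitals mark CCGGAAG, the core letters bound by many ETS factors, searched on both strands.
SLC45A3, chr1:205649638-205649887: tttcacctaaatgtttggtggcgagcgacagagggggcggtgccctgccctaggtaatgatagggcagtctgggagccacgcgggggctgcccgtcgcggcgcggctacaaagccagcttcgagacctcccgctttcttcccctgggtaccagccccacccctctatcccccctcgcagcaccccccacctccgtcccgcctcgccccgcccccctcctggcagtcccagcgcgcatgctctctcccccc
ELK4, chr1:205601140-205601389: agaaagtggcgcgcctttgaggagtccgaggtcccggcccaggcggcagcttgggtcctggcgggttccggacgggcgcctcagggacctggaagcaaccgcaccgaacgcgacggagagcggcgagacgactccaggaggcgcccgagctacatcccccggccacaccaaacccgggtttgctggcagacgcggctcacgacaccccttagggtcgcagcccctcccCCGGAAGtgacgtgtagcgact
Both stretches had 69.2% G or C, against a median of 63.2% over 19856 coding promoters. The ELK4 stretch held 28 CG dinucleotides and the SLC45A3 stretch 19, where the median was 18. CCGGAAG occurred once upstream of ELK4 and not upstream of SLC45A3, and 11.9% of all promoters held it. Neither stretch held the androgen response element, AGAACA and TGTTCT with 3 bases between them, within 2 differences over these 12 letters, as 0.791% of promoters did.

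The SLC45A3 loops were short and evenly placed. Their lengths ran from 15 to 150 kb with a median of 75 kb, with 8 partners upstream of the start and 8 downstream. Of the 16, 7 were called in both marks, 5 in H3K27ac alone and 4 in H3K4me3 alone. The ELK4 loops reached further, from 5 to 1285 kb with a median of 130 kb, and 24 of their 37 partners lay downstream. Of these, 12 were called in both marks, 13 in H3K27ac alone and 12 in H3K4me3 alone.

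The main change at SLC45A3 was a rise of H3K4me3 contact at 16 h. Summed over its 16 loops, H3K4me3 contact was 33.8 at 0 m and then, in order of time with DHT, 29.0, 38.3, 75 and 36.6. The 16 h value, from 388 read pairs, stood above the other 4 time points, whose values lay within 29.0 to 38.3. It was 2.22-fold the 0 m value (95% interval 1.80 to 2.74), a log2 change of 1.15 (0.85 to 1.46). Against the 4 h table, in which the loops held 484 read pairs, the 16 h value was 1.96-fold higher (1.71 to 2.24). From 16 h to 72 h it fell by 1.04 on the log2 scale (interval -1.33 to -0.75), and 35 of 11322 promoters had a lower change. At least 1.5-fold lower were 9.02% of promoters.

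Among 11339 coding promoters with at least 100 read pairs at 0 m and 16 h together, 6 had a higher log2 change than SLC45A3, or 0.0529%. A rise of at least 1.5-fold was seen at 2.80% of promoters, and the median log2 change was 0.12. The 6 promoters above it, named after their values were seen, were SNAI2, TMPRSS2, KLK3, KLK2, BHLHA15 and NDRG1, with log2 changes of 1.80, 1.61, 1.58, 1.45, 1.37 and 1.20. KLK3 encodes prostate-specific antigen, KLK2 the related kallikrein, and TMPRSS2 a transmembrane serine protease, all 3 well-known androgen targets.

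H3K27ac contact of SLC45A3 moved differently. Its summed H3K27ac contact in the same order was 52.3, 52.2, 61.1, 61.1 and 37.4. The first 4 values lay close together and the 72 h value was the lowest. At 16 h the log2 change was 0.23 (interval -0.05 to 0.50), near the median of 0.20 over 9849 promoters, and 47.7% of promoters had a higher change. Scaled to the same total per table it was -0.02, so no direction is given for it. At 72 h it fell by 0.49 on the log2 scale against 0 m (interval -0.81 to -0.16), and 94.2% of 9555 promoters had a higher change. This fall was less than 1.5-fold, which 3.86% of promoters reached in that direction. With the starts of all annotated SLC45A3 transcripts, 43 loops instead of 16, the 72 h change was -0.14 (-0.34 to 0.06), and with the 3 strongest loops left out it was -0.40 (-0.91 to 0.11). Against the 16 h table, the 72 h value was 0.611-fold (0.496 to 0.75), and 59 of 9920 promoters had a lower change, where 1.31% of promoters were at least 1.5-fold lower.

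ELK4 held more contact than SLC45A3 in each table. Its summed H3K27ac contact was 109.9, 134, 108, 148 and 144 from 0 m to 72 h. Against 0 m the log2 change was 0.28 (interval 0.10 to 0.47) at 30 m, and 0.08 (-0.06 to 0.21) with the starts of all annotated ELK4 transcripts. It was -0.02 at 4 h. At 16 h it was 0.43 (0.25 to 0.62), but 0.19 with the same total per table, 0.22 (-0.03 to 0.47) over the loops called in H3K27ac and -0.03 relative to the other loops of the region, so no direction is given for it. At 72 h it was 0.39 (0.20 to 0.59), and the interval included 0 over the loops called in H3K27ac, at 0.25 (-0.01 to 0.51), and over loops of at least 20 kb, at 0.22 (-0.01 to 0.45). The 4 changes lay within the middle of the distribution, with 30.4% to 60.6% of promoters showing a higher change. In H3K4me3 its summed contact was 78.7, 78.6, 112, 88.0 and 78.1 in the same order. The 4 h value stood above the others, with a log2 change of 0.50 (0.32 to 0.70), which was 0.28 (0.09 to 0.47) with the same total per table and 0.27 relative to the other loops of the region. On the deposited scale 20.1% of 12362 promoters had a higher change. The 16 h log2 change was 0.16 (-0.06 to 0.38).

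**Figure D1:**
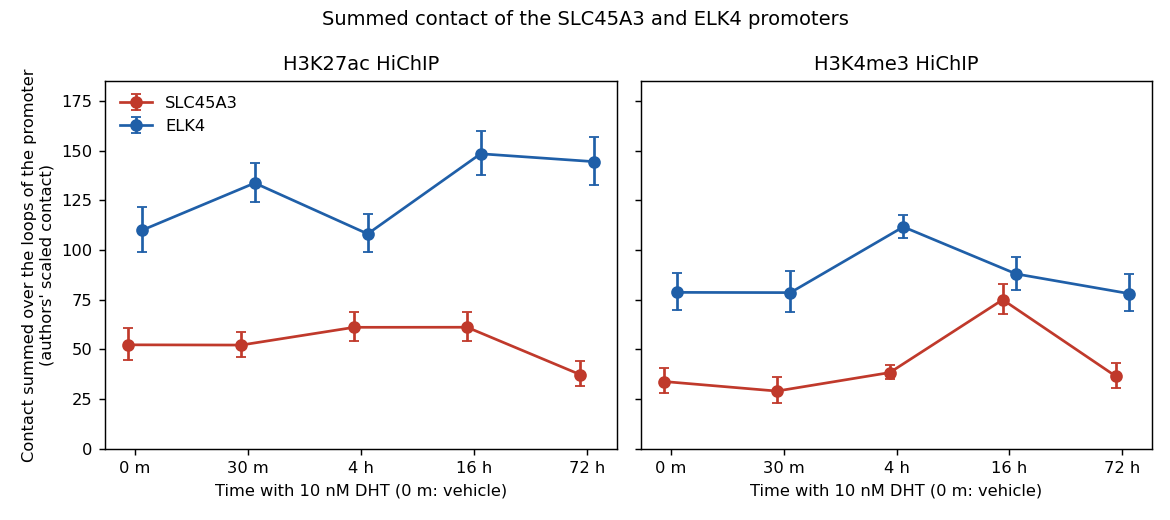
Contact summed over the 16 SLC45A3 loops (red) and the 37 ELK4 loops (blue), on the authors' scale, at 0 m and after 4 lengths of DHT treatment, for H3K27ac (left) and H3K4me3 (right); each point is 1 deposited table and bars are 95% Poisson intervals of its read pairs. SLC45A3 H3K4me3 contact stood at 75 at 16 h and between 29.0 and 38.3 at the other time points, and its H3K27ac contact was lowest, 37.4, at 72 h.

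The 2 neighbours were then compared directly, with the loop that joins them left out. At 16 h in H3K4me3 the SLC45A3 log2 change exceeded that of ELK4 by 1.05 (interval 0.67 to 1.42). At 72 h in H3K27ac it was lower by a log2 difference of -0.94 (-1.32 to -0.56), with log2 changes of -0.55 at SLC45A3 and 0.39 at ELK4. A smaller difference of -0.34 (-0.67 to -0.01) was found at 30 m in H3K27ac, whose interval included 0 over the loops called in that mark, at -0.295 (-0.67 to 0.08), and with the joining loop kept, at -0.29 (-0.61 to 0.04). The other 5 differences had intervals that included 0, among them -0.23 (-0.56 to 0.10) at 16 h in H3K27ac and -0.34 (-0.69 to 0.02) at 4 h in H3K4me3, where the loops called in that mark gave -0.40 (-0.79 to -0.01). These differences do not depend on the scaling of the tables.

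The 16 h H3K4me3 rise was found both in the strongest SLC45A3 loops and in the sum of the others. With at least 20 read pairs over 0 m and 16 h, 5 of 6 loops were at least 1.5-fold higher, against 18.7% of all loops with that depth, and 3 of the 6 had intervals above 0. Some of the 5 reached this depth mainly through 16 h. The loop joining the promoters had 10 and 25 read pairs, and the 65 kb loop had 6 and 14. When 50 read pairs were asked for, 3 loops were at least 1.5-fold higher. The strongest loop carried 34.0% (29.3 to 39.0) of the contact at 16 h and 30.8% (22.7 to 39.9) at 0 m. The 4 strongest loops, ranked by mean contact over the 5 time points, together had a log2 change of 1.07 (0.72 to 1.44). As 16 h entered that mean, the ranking partly used the rise itself. With these 4 loops set aside, the other 12 together had a log2 change of 1.33 (0.76 to 1.93), from 33 to 121 read pairs. The 8 loops with upstream partners gave 0.95 (0.53 to 1.39) and the 8 with downstream partners gave 1.33 (0.91 to 1.78).

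The strongest H3K4me3 loop of SLC45A3, by its mean over the 5 time points, was 15 kb long and ended in the gene itself, at chr1:205632001-205633000, which overlaps an exon. Its H3K4me3 contact was 10.4, 10.6, 9.27, 25.5 and 8.80 from 0 m to 72 h, so that 16 h stood alone. The log2 change at 16 h was 1.29 (0.75 to 1.86), from 37 to 132 read pairs. The mean of all 12497 loops of 15 kb had a log2 change of -0.0011. In H3K27ac the same loop had contact of 11.8, 13.5, 14.7, 12.1 and 8.16, with a log2 change of 0.04 (-0.57 to 0.66) at 16 h. Its H3K27ac change against 0 m had an interval that included 0 at each of the 4 treated time points.

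The next loop, 20 kb long, joined the SLC45A3 promoter to intergenic sequence upstream, at chr1:205667001-205668000. It was the strongest H3K27ac loop of the gene at every time point, with contact of 12.05, 13.9, 16.0, 18.0 and 8.42. Its H3K4me3 contact was 5.92, 5.81, 8.32, 13.1 and 8.25. At 16 h the log2 change was 0.58 (0.03 to 1.16) in H3K27ac and 1.15 (0.43 to 1.93) in H3K4me3. With the same total per table the H3K27ac change was 0.34 (-0.22 to 0.91). At 16 h it stood at 6.36 times the mean H3K27ac contact of the 11584 loops of its length, and at 0 m at 4.64 times that mean.

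A loop of 35 kb ended in an exon of NUCKS1, which encodes a nuclear DNA-binding phosphoprotein, at chr1:205682001-205683000. Its H3K4me3 contact was 1.97, 0.342, 2.22, 8.31 and 3.30, a log2 change of 2.07 (0.91 to 3.47) at 16 h from 7 to 43 read pairs. At 0 m it was at 0.986 times the mean of the 8677 loops of its length and at 16 h at 4.15 times that mean. In H3K27ac it changed by 0.35 (-0.39 to 1.12). These 3 loops made up 69.6% of the gain in summed H3K4me3 contact.

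The promoter-to-promoter loops of SLC45A3 did not share a single course. The 70 kb loop to the NUCKS1 promoter had H3K4me3 contact of 6.20, 3.07, 5.23, 4.64 and 4.12, a log2 change of -0.42 (-1.32 to 0.48) at 16 h, and was the only loop with at least 20 read pairs that was not higher at 16 h in this mark. In H3K27ac the same loop had 3.82, 3.42, 4.06, 7.22 and 4.74, a log2 change of 0.92 (-0.04 to 1.96). The 95 kb loop to the promoter of RAB29, a small GTPase of vesicle trafficking, rose from 2 to 14 H3K4me3 read pairs, a log2 change of 2.26 (0.14 to 5.44). The 135 kb loop to the promoter of SLC41A1, a magnesium transporter, had 4 and 11 read pairs, a log2 change of 0.91 (-0.84 to 3.02), which was not distinguishable from 0 at this depth.

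**Figure D2:**
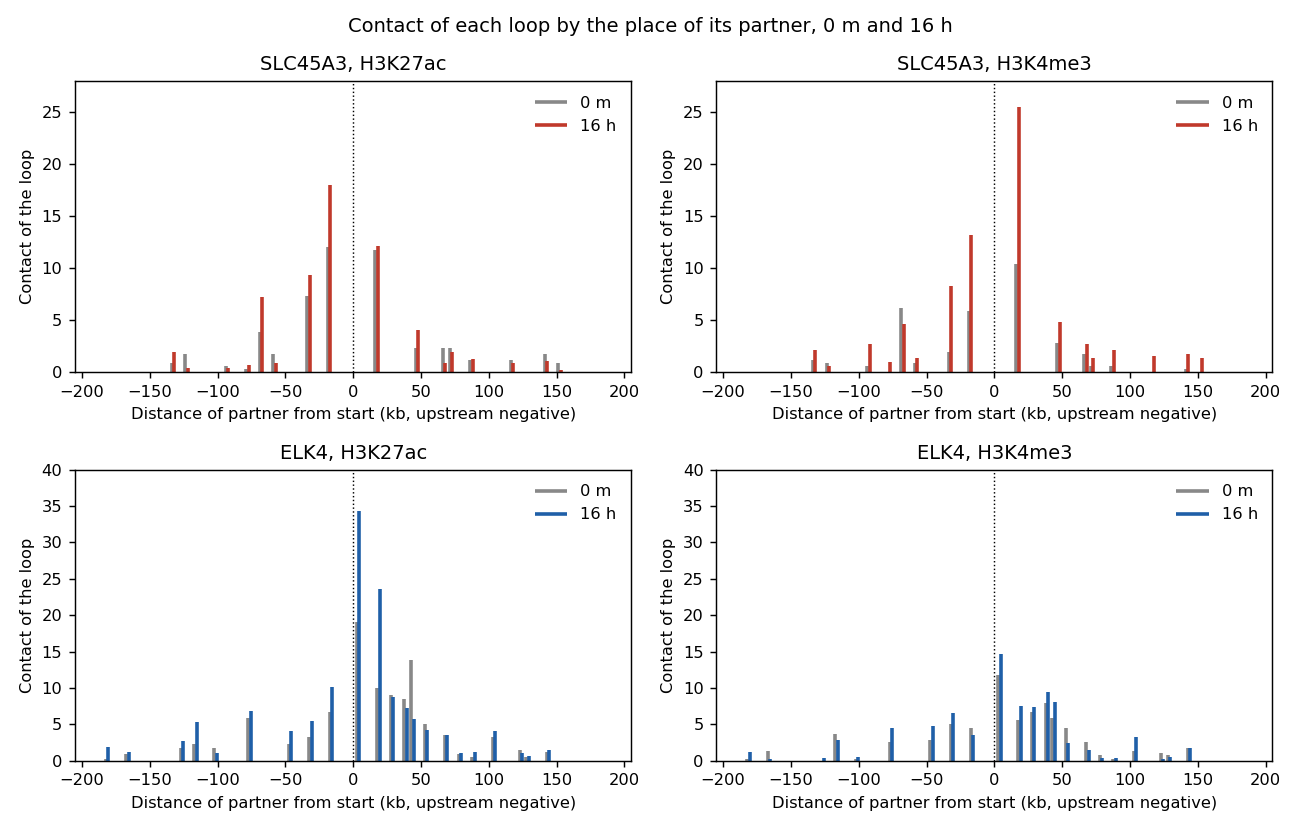
Contact of each loop on the authors' scale (vertical axis) against the distance of its partner anchor from the gene's start in kb (horizontal axis, upstream negative), at 0 m (grey) and 16 h (colour), for SLC45A3 (top, red) and ELK4 (bottom, blue) in H3K27ac (left) and H3K4me3 (right); partners over 200 kb away are not drawn. The 3 SLC45A3 loops of 15, 20 and 35 kb were higher at 16 h in H3K4me3, at 25.5, 13.1 and 8.31, and the 45 kb downstream ELK4 loop was lower at 16 h in H3K27ac, at 5.73 against 13.8.

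In H3K27ac at 16 h, 2 of the 5 SLC45A3 loops with at least 20 read pairs were at least 1.5-fold higher, close to the 35.2% of all loops. At 72 h, 1 of 5 was at least 1.5-fold lower, against 15.0% of all loops, and none was higher. The 72 h fall was shared by the 4 strongest loops, with a log2 change of -0.42 (-0.82 to -0.03), and the other 12, with -0.62 (-1.22 to -0.02). The 3 loops of 15, 20 and 35 kb went from 11.8 to 8.16, from 12.05 to 8.42 and from 7.35 to 4.74 between 0 m and 72 h, and each single interval included 0.

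The strongest loop of ELK4 lay just downstream of its start. In both marks and at all 5 time points it was the loop of 5 kb that ended in an intron of ELK4 at chr1:205597001-205598000, with 15.1% to 25.5% of the summed contact. This loop was called in H3K4me3 alone. Over the ELK4 loops called in H3K27ac, the loop of highest mean H3K27ac contact was the 45 kb loop into MFSD4A, with 7.78% (5.19 to 11.1) of their contact at 16 h, against 23.2% for the 5 kb loop among all ELK4 loops. The H3K27ac contact of the 5 kb loop was 19.1, 23.2, 19.2, 34.4 and 36.8, high at 16 h and 72 h and low before. Its log2 changes at those time points were 0.85 (0.42 to 1.29) and 0.95 (0.51 to 1.40). The mean of all 28409 loops of 5 kb had log2 changes of 0.69 and 0.50 at the same time points. The ELK4 loop stood at 2.498 times that mean at 0 m, 2.80 times at 16 h and 3.40 times at 72 h. In H3K4me3 the loop had 11.8, 15.7, 21.5, 14.7 and 12.6, highest at 4 h with a log2 change of 0.86 (0.39 to 1.36), where the mean of loops of 5 kb had 0.33.

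The 20 kb loop into an exon of ELK4, at chr1:205582001-205583000, rose beyond the mean of its length in H3K27ac at 16 h. Like the 5 kb loop, it was called in H3K4me3 alone. Its H3K27ac contact was 9.99, 11.7, 9.83, 23.6 and 15.8, a log2 change of 1.24 (0.67 to 1.84) at 16 h, while the mean of loops of 20 kb had 0.13. In H3K4me3 it had 5.64, 7.17, 10.4, 7.54 and 5.77, and only the 4 h interval, 0.88 (0.19 to 1.64), excluded 0. With the same total per table this was 0.66 (-0.03 to 1.41).

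A loop of 45 kb in the same direction went the other way. It ended in MFSD4A, a gene of a major facilitator transporter family, at chr1:205557001-205558000. Its H3K27ac contact was 13.8, 10.8, 9.19, 5.73 and 8.68, so that every treated table was below 0 m and 16 h was the lowest. The log2 change at 16 h was -1.27 (-2.01 to -0.56), and the loop went from 8.72 to 3.55 times the mean of the 7988 loops of its length. In H3K4me3 the same loop had 5.92, 8.88, 7.69, 8.12 and 5.22, with a log2 change of 0.46 (-0.33 to 1.28) at 16 h. The 40 kb loop, also into MFSD4A, had an H3K27ac log2 change of -0.24 (-0.997 to 0.53) at 16 h. The 30 kb loop ended at chr1:205572001-205573000, inside ELK4 and at the border of MFSD4A, and had -0.07 (-0.77 to 0.66).

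Upstream of ELK4, the 30 kb loop into SLC45A3, which shares the partner of the 15 kb SLC45A3 loop, had H3K27ac contact of 3.23, 6.84, 5.77, 5.52 and 7.10. All 4 treated tables were above 0 m, and the intervals at 30 m, 1.08 (0.08 to 2.198), and 72 h, 1.14 (0.08 to 2.30), excluded 0. Both included 0 with the same total per table, at 0.99 (-0.01 to 2.11) and 0.96 (-0.09 to 2.12). In H3K4me3 it had 5.08, 2.73, 4.75, 6.57 and 4.40, with no clear course. The 15 kb loop to intergenic sequence between the genes had H3K27ac contact of 6.76, 11.0, 7.05, 10.2 and 9.74.

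Of the ELK4 loops with at least 20 read pairs at 16 h, 6 of 13 were at least 1.5-fold higher in H3K27ac, where 35.2% of all loops were, and 1, the 45 kb loop, was lower, where 14.2% were. In H3K4me3 at 4 h 6 of 17 were higher, against 30.8% of all loops, and at 16 h 3 of 12, against 18.7%. With 72 h of DHT, 4 of 12 were higher in H3K27ac, against 31.0%. None of these ELK4 shares stood far from its background.

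**Figure D3:**
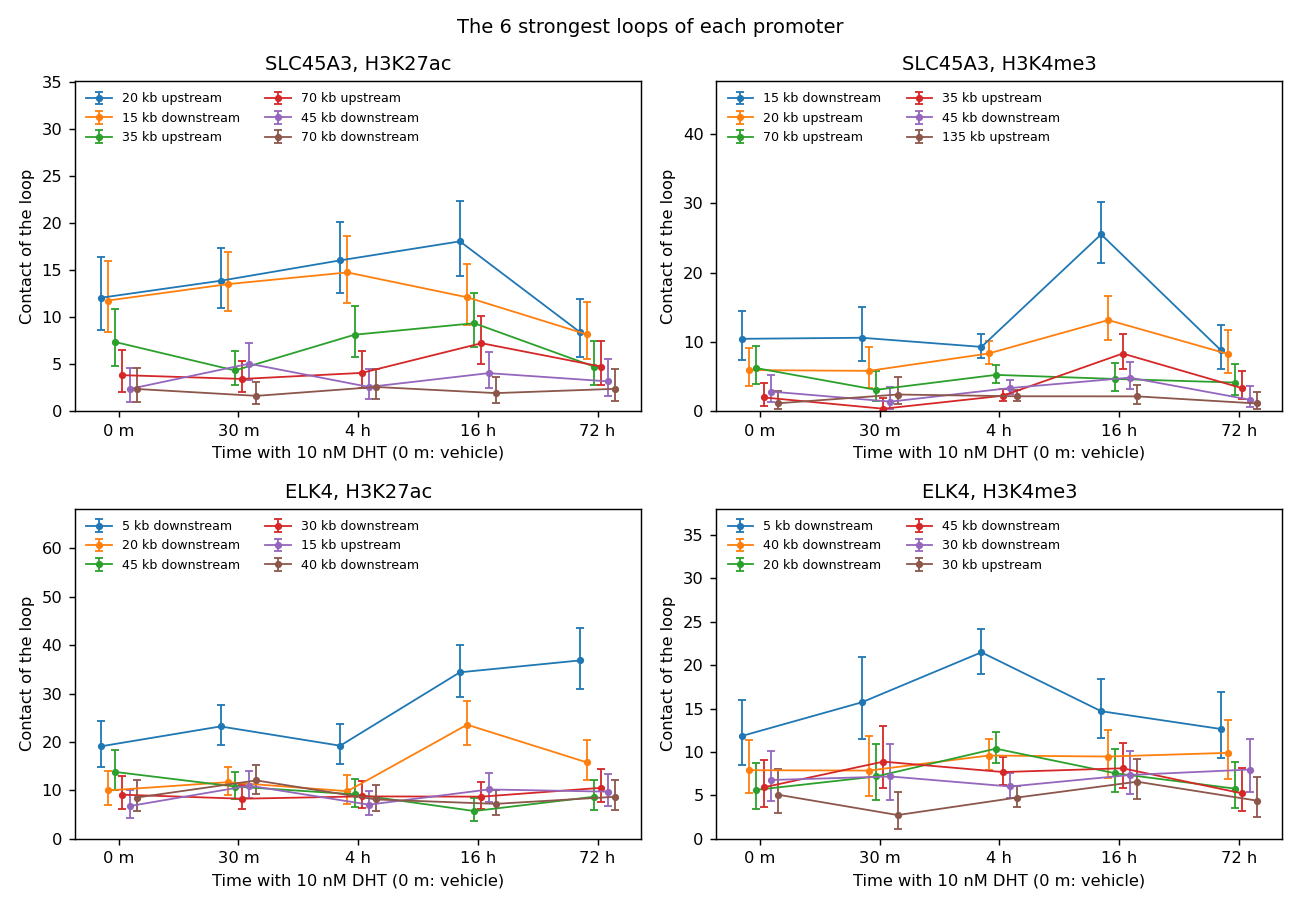
Contact on the authors' scale of the 6 loops of highest mean contact of each promoter and mark at the 5 time points, for SLC45A3 (top) and ELK4 (bottom) in H3K27ac (left) and H3K4me3 (right); bars are 95% Poisson intervals of the read pairs, and loops are named by their length and the side of the start on which the partner lies. In the H3K4me3 panel of SLC45A3 the 15 kb loop stood at 25.5 at 16 h against 8.80 to 10.6 elsewhere, and in the H3K27ac panel of ELK4 the 5 and 20 kb loops were higher at 16 h while the 45 kb loop was lower.

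The loop that joined the SLC45A3 and ELK4 promoters, 45 kb long, was called in both marks. Its H3K27ac contact was 2.35, 5.04, 2.56, 4.03 and 3.16, and its H3K4me3 contact was 2.82, 1.37, 3.33, 4.83 and 1.65. Both marks gave a log2 change of 0.78 at 16 h, with intervals of -0.48 to 2.18 and -0.33 to 1.999. From 8 to 19 read pairs in H3K27ac and from 10 to 25 in H3K4me3, a change of this loop was not detectable at this depth. Its contact at 16 h was 2.5 times the mean of loops of its length in H3K27ac and 2.84 times in H3K4me3. It held 6.6% of the read pairs of SLC45A3 at 16 h in H3K27ac and 6.4% in H3K4me3.

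The genes shared other contacts. Besides the joining loop, 8 partner anchors were used by both promoters, which was 50% of the SLC45A3 loops and 21.6% of the ELK4 loops. Allowing partners 1 bin apart, and with the joining loop counted as well, the shares were 87.5% and 40.5%. At the 15 kb SLC45A3 partner, H3K4me3 contact with SLC45A3 had a log2 change of 1.29 at 16 h and contact with ELK4 had 0.37 (-0.49 to 1.28). At the NUCKS1 promoter the values were -0.42 with SLC45A3 and -0.34 with ELK4 in H3K4me3, and 0.92 and 1.17 in H3K27ac. At the ELK4 exon anchor, H3K27ac contact with ELK4 had 1.24 and contact with SLC45A3 had -1.47 (-3.65 to 0.43), the latter from 8 and 4 read pairs.

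The partner anchors were also followed in their other loops. The upstream anchor of the 20 kb SLC45A3 loop took part in 12 loops that touched neither promoter. Together these were higher in H3K27ac, with log2 changes that climbed from 0.54 (0.27 to 0.82) at 30 m through 0.87 (0.60 to 1.14) to 1.67 (1.42 to 1.93) at 16 h, before 0.26 (-0.05 to 0.56) at 72 h. Most of the read pairs came from the loop to the adjacent bin, chr1:205672001-205673000, whose H3K27ac contact was 35.3, 53.3, 65.4, 123 and 42.9. In H3K27ac the loops of this intergenic anchor thus had a single peak at 16 h. The loop to the adjacent bin is 5 kb long and had a log2 change of 1.80 (1.52 to 2.10) at 16 h. The mean of all loops of 5 kb had 0.69. In H3K4me3 the same 12 loops had a log2 change of -0.02 (-0.57 to 0.54) at 16 h, while the loop from this anchor to the SLC45A3 promoter had 1.15. The other 26 loops of the 15 kb partner inside SLC45A3 together rose at 16 h in H3K4me3, by 0.79 (0.54 to 1.04), and in H3K27ac, by 0.62 (0.39 to 0.85). Their H3K27ac read pairs went from 233 to 495, of which the 5 kb loop to the adjacent bin, chr1:205637001-205638000, held 67 and 248. The other 60 loops of the NUCKS1 promoter anchor had -0.03 (-0.22 to 0.16) in H3K4me3 at 16 h.

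The bin of the 20 kb SLC45A3 partner held 1 match to the androgen response element with 2 differences, searched on both strands, and the ELK4 promoter bin held 2. The bins of the 45 kb ELK4 partner and of the 135 kb SLC45A3 partner held 1 each, in introns of MFSD4A and SLC41A1, so that 4 of the 14 bins searched held a match. The first 3 are printed because their bins carry the 20 kb and the joining loop, on the plus strand of GRCh37, with the 15 letters of the match in capitals. The bases that flank each match are in lower case.
20 kb SLC45A3 partner, chr1:205668144-205668182, intergenic: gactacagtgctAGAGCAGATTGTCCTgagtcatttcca
ELK4 promoter bin, chr1:205602141-205602179, intergenic: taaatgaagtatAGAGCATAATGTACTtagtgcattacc
ELK4 promoter bin, chr1:205602988-205603026, intergenic: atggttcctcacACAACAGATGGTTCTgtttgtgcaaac
Counted from the start, with upstream negative, the first match lies at -18526 bp from SLC45A3, and the other 2 lie at -1021 and -1868 bp from ELK4. Matches this loose were common, present in 30.3% of 210061 anchor bins. No bin of the strongest partners held a match with 1 difference or none, as 2.57% of bins did, and the SLC45A3 promoter bin held none of either kind. Receptor binding was not analysed here.

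The other promoters of the region were read in the same way. Of the 14 other coding genes within 500 kb, 10 had loops and 6 had at least 100 H3K4me3 read pairs at 16 h. None of the 6 was 1.5-fold higher, with log2 changes from -0.20 to 0.43. RAB29 gave the upper value (0.03 to 0.83), and NUCKS1, with 62 loops, had -0.06 (-0.24 to 0.12). Among the 4 genes below that depth KLHDC8A had 1.54 (-0.07 to 3.57), from 4 to 17 read pairs. In H3K27ac at 72 h, 4 neighbours had 100 read pairs and none was 1.5-fold lower, with log2 changes from -0.28 to 0.51. RAB29, below that depth with 44 and 27 read pairs, had -0.86 (-1.61 to -0.14), so that its values had the same signs as those of SLC45A3 in H3K4me3 at 16 h and in H3K27ac at 72 h. In H3K27ac at 16 h, 3 of 5 tested neighbours were at least 1.5-fold higher, where 19.9% of all promoters were. These were NUCKS1, at 0.61 (0.43 to 0.80), SLC41A1, at 0.70 (0.36 to 1.05), and TMCC2, at 1.05 (0.41 to 1.72). The 273 loops of the region that touched neither member promoter had log2 changes of 0.46 (0.39 to 0.53) in H3K27ac and 0.22 (0.14 to 0.31) in H3K4me3 at 16 h. Relative to them, SLC45A3 had 0.92 and ELK4 -0.06 in H3K4me3, and SLC45A3 had -0.24 and ELK4 -0.03 in H3K27ac.

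**Figure D4:**
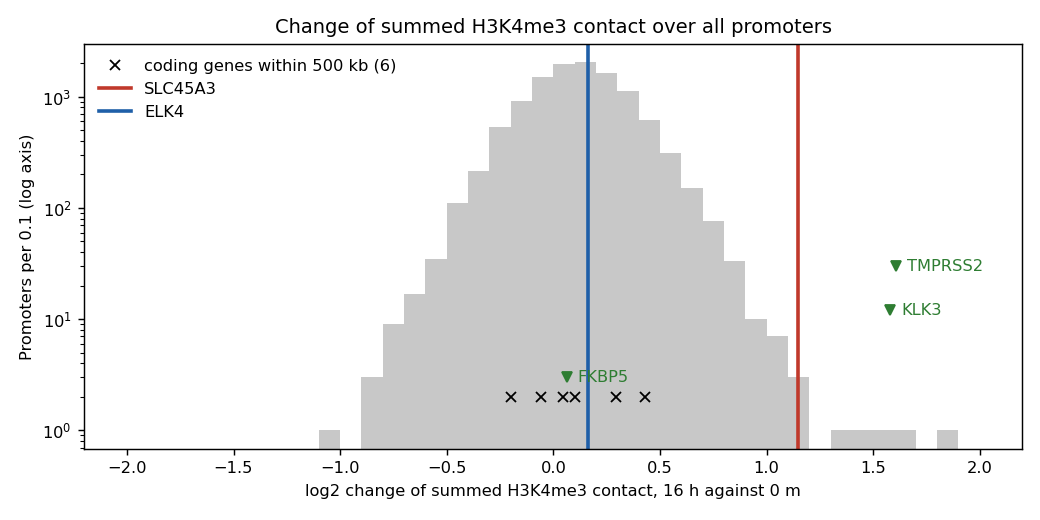
Log2 change of summed H3K4me3 contact from 0 m to 16 h over 11339 coding promoters with at least 100 read pairs (grey, promoters per 0.1, log axis), with SLC45A3 (red line), ELK4 (blue line), 6 neighbouring genes (crosses) and the androgen targets TMPRSS2, KLK3 and FKBP5 (green triangles, whose height has no meaning). SLC45A3 lay at 1.15 in the right tail, ELK4 at 0.16 near the median of 0.12, and the neighbours between -0.20 and 0.43.

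In the families of both genes the 16 h H3K4me3 values were lower than that of SLC45A3. Of the other SLC45 carriers, SLC45A2, a melanosomal transporter, had a 16 h H3K4me3 log2 change of 0.32 (-0.25 to 0.92) and SLC45A4 had 0.01 (-0.31 to 0.34). SLC45A1, with fewer than 100 read pairs, had 0.68 (0.04 to 1.36). Of the ternary complex factors and their partner, ELK1 had 0.50 (0.25 to 0.76), ELK3 0.38 (-0.04 to 0.82) and SRF 0.19 (0.02 to 0.36), none reaching 1.5-fold. In H3K27ac at 16 h SRF had 0.77 (0.56 to 0.99), above the 0.23 of SLC45A3. At 72 h SRF had 1.38 (1.17 to 1.60), above the 0.39 of ELK4, and 18.9% of promoters were at least 1.5-fold higher.

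Among the androgen targets set beside SLC45A3, TMPRSS2 had a 16 h log2 change of 1.61 (1.43 to 1.79) in H3K4me3 and -0.05 (-0.25 to 0.15) in H3K27ac, the same split between marks. KLK3 had 1.58 (1.34 to 1.83) and 0.57 (0.42 to 0.73). FKBP5, a co-chaperone of steroid receptors, had the opposite split, 0.06 (-0.24 to 0.37) in H3K4me3 and 0.92 (0.53 to 1.32) in H3K27ac. At 72 h in H3K27ac, where SLC45A3 had -0.49, KLK3 had -0.79 (-1.004 to -0.59), TMPRSS2 had -0.10 (-0.31 to 0.12) and FKBP5 had 0.70 (0.29 to 1.12).

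Promoters were set beside SLC45A3 by Euclidean distance over the 8 log2 changes against 0 m. The 5507 searched held at least 100 read pairs at each time point of both marks. They lay over 3 Mb away or on other chromosomes. SLC45A3 itself held 85 read pairs in H3K4me3 at 30 m. Of the 3 promoters most like SLC45A3, 2 were ORC5 at 0.695 and TMPRSS2 at 0.723. The median distance was 1.56. ORC5, a subunit of the origin recognition complex, had 16 h values of 0.80 in H3K4me3 and 0.05 in H3K27ac and a 72 h H3K27ac value of -0.16. The promoters most like ELK4 were TEC at 0.193, EDEM2 at 0.214 and ZNF326 at 0.228, against a median of 0.795. The promoters named here thus lay further from SLC45A3 than from ELK4.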

How the data were processed

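The 15 HiChIP libraries of LNCaP cells were grouped by mark and time point from their labels. The authors trimmed reads (Trim Galore 0.5.0), aligned them to hg19 and paired them by MboI fragments (HiC-Pro 3.1.0), called loops with FitHiChIP in 5 kb bins on all time points of a mark merged, and read each loop's contact at each time point. The deposited value is a signal, contact scaled by the TMM method with 1 factor per table; dividing by the smallest value above 0 gave a whole number for 100% of them, taken as the read pairs. Whether both H3K27ac replicates entered a table is not stated in the sources used here. Because FitHiChIP merges adjacent significant bins, a loop can stand for its neighbours.

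Loops were taken once each from both sets. Summed contact, log2 changes and intervals were computed in Python 3.11.15 with numpy 2.4.6, pandas 2.3.3 and scipy 1.17.1, and drawn with matplotlib 3.10.9. Intervals were exact binomial intervals of one table's share of the read pairs of 2 tables, Poisson intervals for sums, exact (Clopper-Pearson) intervals for shares and normal intervals for differences of log2 changes. They cover counting error only. A loop needed 20 read pairs and a promoter 100 over both tables to be counted as 1.5-fold changed; no test across features was run, because each condition had 1 value. The scripts were tested on simulated counts. Members and lists were chosen with earlier results of these data known. The genes named were the members, coding genes within 500 kb, genes at partners of the 6 strongest loops per gene and mark, ELK1, ELK3, SRF, the SLC45 family, TMPRSS2, FKBP5, KLK3 and the 3 most alike promoters per member, of which 1 is not reported here. Distances used Gencode release 44 lifted to GRCh37; no anchor lay past a chromosome end of that genome.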

Additional observations from a re-analysis of the deposited data

Results flagged for a closer look

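4 changes against 0 m differed between the marks by more than counting error, and none was tested against replicates. SLC45A3 at 16 h had an H3K27ac log2 change lower than that in H3K4me3 by a difference of -0.92 (-1.32 to -0.52), and at 72 h by -0.60 (-1.07 to -0.12). ELK4 at 4 h had a difference of -0.53 (-0.80 to -0.26), H3K27ac being lower, and at 72 h one of 0.41 (0.10 to 0.71), H3K27ac being higher. With the same total per table, an alternative chosen after seeing the data, the ELK4 difference at 72 h was 0.11 (-0.20 to 0.41), so it was lost, while the other 3 intervals still excluded 0. The tables of each mark were scaled separately, and the median log2 changes at 72 h over all coding promoters with enough read pairs were 0.21 in H3K27ac and -0.17 in H3K4me3.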

How the results depend on the processing

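No paired analysis was possible because each mark and time point had 1 deposited value, which carries no replicate number and comes from no test; for the same reason no replicate could be left out. Of 286 values recomputed for 154 results, 152 of them by alternatives chosen after seeing the data, 262 stayed within the interval of the value reported or, for counts, within 1.5 times it. Part of this was fixed in advance. The differences between SLC45A3 and ELK4 could not move with the same total per table, because the scaling cancels. Single loops had wide intervals that this scaling could seldom leave. The count of 262 is therefore no measure of how firm the results are. The SLC45A3 H3K4me3 change at 16 h stayed between 0.91 and 1.49, the latter with the 3 strongest loops left out, and it ranked 7 of 11339 promoters, or 5 of 9815 with at least 200 read pairs. Relative to the other loops of the region, the ELK4 H3K27ac change at 16 h turned from 0.43 to -0.029, and moved to -0.29 at 4 h; SLC45A3 moved to -0.24 in H3K27ac at 16 h, and ELK4 to 0.27 at 4 h and -0.064 at 16 h in H3K4me3. With tables scaled to the same total, ELK4 moved to 0.19 in H3K27ac at 16 h and 0.28 in H3K4me3 at 4 h. With loops called in the mark's own set, ELK4 moved to 0.22 in H3K27ac at 16 h, and the 16 h share of its loop of highest mean contact over the 5 time points to 7.78% in H3K27ac, where this is another loop, and 22.1% in H3K4me3. With loops of at least 20 kb, the SLC45A3 loop of highest mean contact took 36.8% of H3K27ac and 26.6% of H3K4me3 contact at 16 h. With the starts of all transcripts, SLC45A3 had 43 loops and changes of -0.14 in H3K27ac at 72 h and -0.15 in H3K4me3 at 4 h, and ELK4 had 0.077 in H3K27ac at 30 m. Within 1 kb of its start SLC45A3 had 0 loops, since the 1 kb anchor of its bin lies further away. Asking for 50 read pairs left 0 of 2 SLC45A3 and 3 of 6 ELK4 loops past 1.5-fold at 16 h in H3K27ac, and 3 of 5 and 0 of 3 in H3K4me3; scaling to the same total left 1 and 3 in H3K27ac. The cause was not tested. Depth limited single loops: at 16 h only 5 of the 16 SLC45A3 loops in H3K27ac and 6 in H3K4me3 held 20 read pairs.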
